A study of Mus musculus with 10 samples.

Results

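Matricellular proteins are secreted into the matrix between cells, where they bind collagen, growth factors and cell-surface receptors more than they bear load. The genes described here are Postn, Tgfbi, Tnc, Thbs1, Thbs2, Thbs4 and Sparc, together with 3 genes of the provisional and elastic matrix that act beside them, Fn1, Fbn1 and Lox. They were taken by gene symbol, and all 10 were among the 21956 genes of the deposited table and among the 13404 that passed a filter on low counts. Poly(A) RNA of the gastrocnemius, a large calf muscle, was sequenced from wild-type (WT) mice in 5 samples labelled HLI and 5 labelled Sham. The label HLI is not written out and is taken to mean hindlimb ischaemia, with Sham as its operated control. The title of the series concerns endothelial FGF13 and HIF-1alpha, and both groups are WT. Age, sex, strain and the time after the operation are not stated. Nor is it stated that each sample came from its own animal. The p-values set the difference between the groups against the spread of these samples within groups, and that spread may be technical.

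After muscle injury, fibro-adipogenic progenitors and other fibroblasts lay down a transient matrix rich in fibronectin, tenascin-C and periostin, which surrounds muscle stem cells and new fibres and is later replaced by mature collagen. Thrombospondins, SPARC and the crosslinking enzyme lysyl oxidase set how that matrix is assembled, and fibrillin and latent TGF-beta binding proteins hold TGF-beta, a growth factor that raises many of these genes, in a stored form. Macrophages, platelets, tendon cells and muscle fibres also make some of these proteins.

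Total estimated counts ran from 16556385 to 22136299 per library, and levels are given as CPM, the library's counts rescaled to a common total after TMM normalization. Skeletal muscle identity was plain in every library, with the 10 muscle fibre markers summing to between 51112 and 141459 CPM in HLI and between 121393 and 158678 CPM in Sham. Several libraries stood apart. HLI replicate 1 and Sham replicate 1 went against their labels for Myh3, the embryonic myosin heavy chain gene of new fibres, with 7.71 CPM in HLI replicate 1 against 80.0 to 442 CPM in the other HLI libraries, and 164 CPM in Sham replicate 1 against 3.97 to 5.63 CPM in the other Sham libraries. Whether the labels of these libraries were exchanged was not tested. The 7 neutrophil markers summed to 61.1 CPM in HLI replicate 1 and to 67.9 CPM in Sham replicate 3, and to between 2.72 and 15.8 CPM in the other 8 libraries. HLI replicate 3 had the lowest muscle fibre sum and HLI replicate 4 the lowest tendon and adipocyte marker sums, at 245 and 45.3 CPM. Results are therefore given with these libraries and, where it matters, without them.

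None of the matricellular genes passed the test between HLI and Sham. The edgeR quasi-likelihood test with Benjamini-Hochberg adjustment over all genes called 0 of the 10, against a background of 0% of the 13404 genes, and 0 in each of 20 alternative fits. Of the 10 log2 fold changes of HLI over Sham, 9 lay above 0, against 53.8% of all genes, and their median was 0.50, against 0.03 for all genes. At an unadjusted p under 0.05, 2 of the 10 were higher in HLI (Postn and Tnc), against 10.7% of all genes, and 0 were lower, against 6.15%. DESeq2 called 45 of 14397 genes (0.313%), and edgeR called 54 of 13451 (0.401%) when HLI replicate 1 and Sham replicate 1 were both left out. Neither fit called any of the matricellular genes, but DESeq2 gave Postn no p-value and so did not test it. Postn and Tnc were also the 2 genes with a log2 fold change above 1, against 3.42% of all genes. For 0 of the 10 did every HLI library lie above every Sham library, against 0.776% of all genes, and for 0 below, against 0.873%. Without HLI replicate 1 the median log2 fold change was 0.22, and without HLI replicate 3 it was 0.28.

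**Figure D1:**
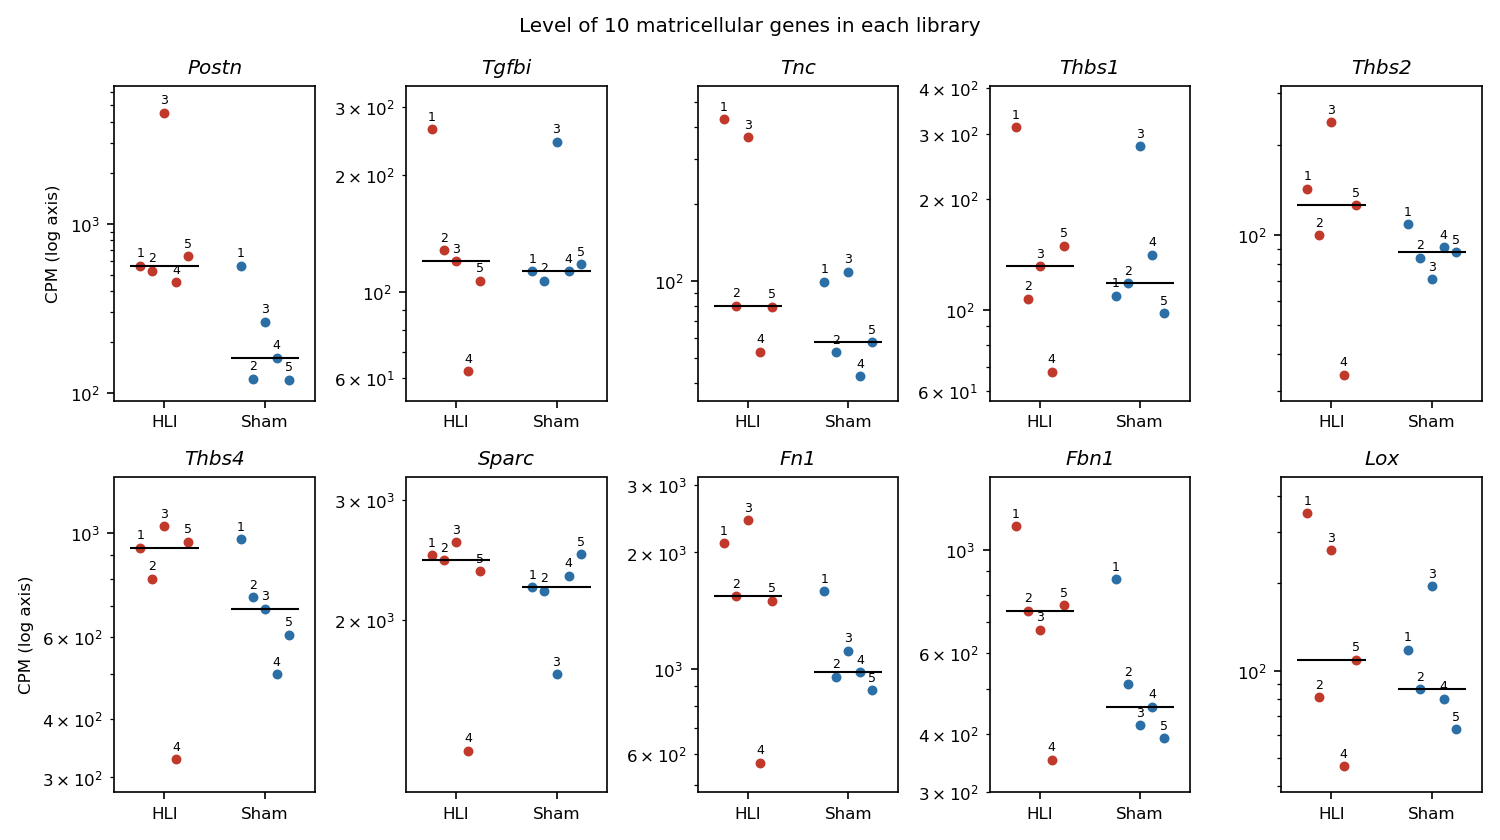
CPM on a log axis for the 10 genes, one panel each, with the 5 HLI libraries left of the 5 Sham libraries. Points are libraries labelled by replicate number and black lines are group medians; HLI replicate 3 stands apart for Postn at 4520 CPM, and HLI replicate 4 is the lowest HLI point in all 10 panels.

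The 2 genes of the FAS1 domain family differed in which libraries were high. Postn (ENSMUSG00000027750) encodes periostin, a collagen-binding protein of activated fibroblasts, and Tgfbi (ENSMUSG00000035493) encodes a TGF-beta-induced protein of related structure that binds integrins and collagen. Postn had the largest log2 fold change of the 10 genes, and Tgfbi one close to 0.

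Postn stood at 566, 529, 4520, 452 and 644 CPM in HLI replicates 1 to 5, and at 565, 122, 265, 162 and 120 CPM in Sham replicates 1 to 5. All 5 HLI libraries lay above the Sham median of 162 CPM, and the groups overlapped only through Sham replicate 1, which lay above HLI replicates 2 and 4. The group means were 1342 ± 1777 CPM in HLI and 247 ± 187 CPM in Sham (SD, n = 5 each). HLI over Sham gave a log2 fold change of 2.44 (SE 0.73, edgeR unadjusted p = 0.0059, adjusted p = 0.29). An exact permutation test of the log2 CPM, two-sided as are all such tests here, gave p = 0.024, where the smallest possible was 0.0079. Leaving out HLI replicate 3 lowered the log2 value to 1.15 (edgeR adjusted p = 0.57), and without both HLI replicate 1 and Sham replicate 1 it was 3.20 (adjusted p = 0.11). DESeq2 gave Postn neither a p-value nor an adjusted p. The summed level of the 8 muscle stem cell and new fibre markers was highest in the same library of each group as Postn, at 1271 CPM in HLI replicate 3 and 80.2 to 312 CPM in the other HLI libraries. In Sham it was 286 CPM in replicate 1 and between 44.0 and 66.0 CPM in the others. Most of it came from Myh3 and Myh8 in those libraries, and not every marker followed, since Myod1, a myogenic factor gene, was highest in HLI replicate 1 (37.2 CPM) and lowest in Sham in replicate 1 (20.4 CPM). Nor did the other HLI libraries keep the order of Postn. HLI replicate 4 had the next highest marker sum in HLI, 312 CPM, but the lowest Postn in HLI. HLI replicate 1 had the lowest marker sum in HLI, 80.2 CPM, but more Postn than HLI replicate 2. The part of these markers in the Postn difference was not tested.

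Tgfbi stood at 263, 128, 120, 62.6 and 107 CPM in HLI replicates 1 to 5, and at 113, 107, 244, 113 and 118 CPM in Sham replicates 1 to 5. One library in each group was high, HLI replicate 1 and Sham replicate 3, and the other libraries ran from 62.6 to 128 CPM in HLI and from 107 to 118 CPM in Sham. HLI over Sham was -0.03 on the log2 scale (SE 0.35, edgeR adjusted p = 0.97, exact permutation p = 0.94). It was 0.26 without Sham replicate 3, -0.42 without HLI replicate 1, and 0.09 on unscaled log2(TPM + 1), a scale on which the median gene stood at 0.19.

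The ratio of Postn to Tgfbi within a library, which does not depend on library scaling, was compared after these values had been seen. On the TPM scale it was 1.95, 3.69, 33.8, 6.59 and 5.43 in HLI replicates 1 to 5, and 4.55, 1.04, 0.998, 1.29 and 0.921 in Sham replicates 1 to 5. In Sham replicates 2 to 5 the transcripts were about equally abundant per length, and in HLI Postn exceeded Tgfbi in every library. The mean log2 ratio of CPM differed by 2.13 (SE 0.81) between HLI and Sham, with 3 of 5 HLI libraries above the highest Sham library. The exact permutation p was 0.024, or 0.095 after adjustment over the 4 ratios compared, so the difference did not pass once adjusted. That adjustment does not cover the pairs that were not compared. Postn alone gave the same exact permutation p of 0.024, so the ratio adds no separate support. Without HLI replicate 3 the difference was 1.51.

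Promoter windows from RefSeq (GRCm38.p6, not the build named in the processing notes) were held for 7 of the 10 genes, in 9 windows, with 2 start sites each for Postn and Tnc. The 250 bases before the start site are shown for Postn and Tgfbi, the related pair with unlike values, and for Tnc, the other gene with an unadjusted p under 0.05. Each is written on the gene's strand. Capitals mark TATAAA, the letters of the TATA box motif wherever they lie, or CAGAC, the core bound by SMAD factors. Both are marked on either strand, so that CAGAC on the other strand reads GTCTG. The Postn window is chr3:54360857-54361106 on the plus strand, the Tgfbi window chr13:56609336-56609585 on the plus strand, and the Tnc window chr4:64047016-64047265 on the minus strand.
Postn: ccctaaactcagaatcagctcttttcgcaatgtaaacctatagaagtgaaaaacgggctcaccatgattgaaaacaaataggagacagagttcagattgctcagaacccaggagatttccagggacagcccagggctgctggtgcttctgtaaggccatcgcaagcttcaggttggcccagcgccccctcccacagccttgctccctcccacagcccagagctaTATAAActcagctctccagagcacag
Tgfbi: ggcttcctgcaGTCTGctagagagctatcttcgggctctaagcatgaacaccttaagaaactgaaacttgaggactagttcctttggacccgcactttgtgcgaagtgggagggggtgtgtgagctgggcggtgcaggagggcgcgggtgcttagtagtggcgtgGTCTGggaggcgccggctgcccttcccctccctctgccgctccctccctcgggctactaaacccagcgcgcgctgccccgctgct
Tnc: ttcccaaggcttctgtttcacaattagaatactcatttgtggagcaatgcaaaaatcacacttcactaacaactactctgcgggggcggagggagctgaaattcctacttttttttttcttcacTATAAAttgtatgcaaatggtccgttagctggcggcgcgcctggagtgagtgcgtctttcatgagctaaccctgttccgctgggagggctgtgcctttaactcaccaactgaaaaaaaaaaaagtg
In this Postn window TATAAA begins 26 bases before the start and CAGAC is not found, while the window of the other Postn start has CAGAC beginning 191 bases before it and no TATAAA. The Tgfbi window has CAGAC matches beginning 239 and 85 bases before the start and no TATAAA, and this Tnc window has TATAAA beginning 126 bases before it. The other Tnc window overlaps it, holds the same TATAAA and has CAGAC beginning 70 bases before its start. Over the 9 windows TATAAA was found in 4, of 3 genes (12.4% of all 32851 windows of that length), CAGAC in 6, of 6 genes (42.2%), the AP-1 motif TGANTCA in 0 (6.75%) and the MCAT motif CATTCC, bound by TEAD factors, in 1 (12.6%), all searched on both strands. No matches of different motifs overlapped. The CATTCC window is that of Thbs4, where 2 copies share a base.

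Tnc (ENSMUSG00000028364) encodes tenascin-C, a protein of healing and developing matrix that is scarce in resting muscle. It stood at 430, 80.3, 366, 53.0 and 79.6 CPM in HLI replicates 1 to 5, and at 99.5, 52.7, 109, 42.5 and 57.8 CPM in Sham replicates 1 to 5. HLI replicates 1 and 3 lay far above every Sham library, whereas replicates 2, 4 and 5 did not leave the range of Sham. Its log2 fold change was 1.48 (SE 0.57, edgeR unadjusted p = 0.024, adjusted p = 0.29), but the exact permutation p of the log2 CPM was 0.20. That fold change was 1.0 when HLI replicate 1 was left out and 1.15 when HLI replicate 3 was. The same HLI libraries had the highest summed level of the 10 macrophage markers, 3401 CPM in HLI replicate 1 and 2987 CPM in HLI replicate 3, against 804 to 1889 CPM in the other HLI libraries and 605 to 1562 CPM in Sham. Single markers did not all follow, and Itgam, an integrin gene of myeloid cells, was at 45 CPM in HLI replicate 3 against 102 CPM in Sham replicate 3. The part of these cells in the Tnc level was not tested. As the samples are bulk tissue, fewer cells of a type and less RNA per cell cannot be told apart.

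**Figure D2:**
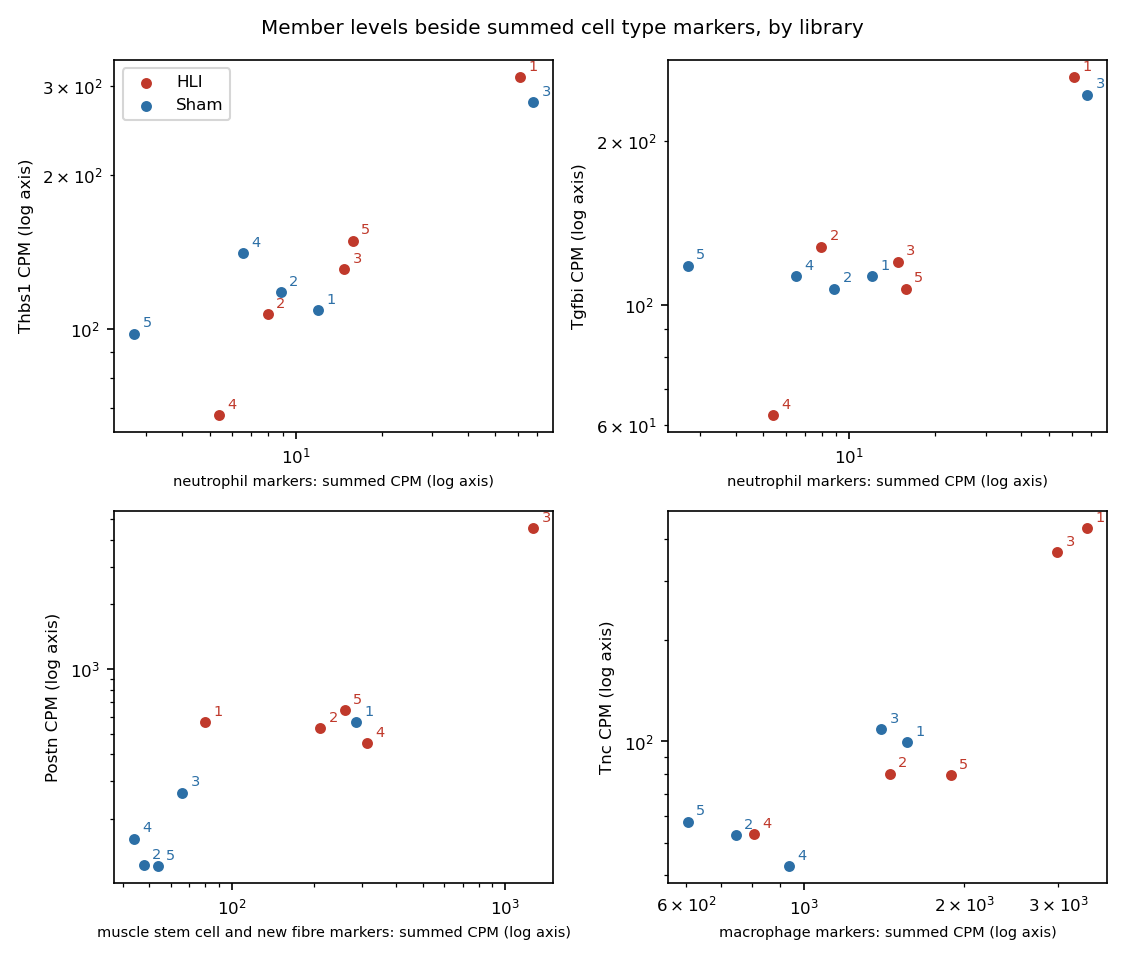
Level of a matricellular gene (CPM, log axis) against the summed CPM (log axis) of a cell type's markers in the same library. HLI is in red and Sham in blue, with replicate numbers beside the points. The pairs of gene and list were picked from all such pairs and not planned ahead, so they test no link. Thbs1 and Tgfbi are highest in HLI replicate 1 and Sham replicate 3, the libraries with neutrophil sums of 61.1 and 67.9 CPM; Postn is highest with new fibre markers at 1271 CPM, and Tnc in the libraries with macrophage sums of 3401 and 2987 CPM.

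The 3 thrombospondin genes did not share a pattern. Thbs1 (ENSMUSG00000040152) encodes a protein that is stored in platelet granules, activates latent TGF-beta and inhibits angiogenesis through CD36 and CD47. Its level was 312, 107, 131, 67.8 and 149 CPM in HLI replicates 1 to 5, and 109, 118, 278, 141 and 97.9 CPM in Sham replicates 1 to 5. As with Tgfbi, the high libraries were HLI replicate 1 and Sham replicate 3, 1 in each group. Between the groups the log2 fold change was 0.04 (SE 0.39, edgeR adjusted p = 0.96, exact permutation p = 0.95), and it was -0.39 without HLI replicate 1 and 0.39 without Sham replicate 3. With both HLI replicate 1 and Sham replicate 1 left out it was -0.48. The libraries with high Thbs1 were those with high summed neutrophil markers. Not every such marker followed, and Mmp8 was at 1.16 CPM in HLI replicate 1 against 1.99 CPM in HLI replicate 3. Of the 7 neutrophil markers 2, Ly6g and Retnlg, averaged under 1 CPM. The libraries with high Thbs1 also had the highest sums of the 8 platelet markers, 83.3 CPM in HLI replicate 1 and 52.0 CPM in Sham replicate 3. Pf4, the platelet factor gene, made up 77.1 CPM of that sum in HLI replicate 1 and 40.8 CPM in Sham replicate 3, while Itga2b, the platelet integrin gene, stood at 1.49 CPM in HLI replicate 1 against 2.04 CPM in HLI replicate 3. In the other libraries the platelet sum was 17 to 33.5 CPM in HLI and 22.2 to 32.7 CPM in Sham, and 4 of the 8 markers (Gp9, Gp1bb, Gp6 and Treml1) averaged under 1 CPM. Neither cell type's part in the Thbs1 level was tested.

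Thbs2 (ENSMUSG00000023885), the fibroblast-expressed relative of Thbs1, followed a different order of libraries. It had 143, 99.9, 239, 34.1 and 126 CPM in HLI replicates 1 to 5, and 109, 84.1, 71.1, 91.2 and 87.6 CPM in Sham replicates 1 to 5. Sham replicate 3, the highest Sham library for Thbs1, was the lowest for Thbs2. In HLI the highest library was 7.01 times the lowest, against 1.53 times in Sham, and 3 of 5 HLI libraries lay above every Sham library while 1, replicate 4, lay below all of them. Its log2 fold change was 0.54 (SE 0.37, edgeR adjusted p = 0.41, exact permutation p = 0.56). Without HLI replicate 4 it was 0.77 (edgeR adjusted p = 0.082), and without HLI replicate 3 it was 0.19.

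Thbs4 (ENSMUSG00000021702) encodes a thrombospondin of tendon and muscle attachment. Its values were 931, 799, 1036, 328 and 959 CPM in HLI replicates 1 to 5, and 973, 731, 690, 500 and 607 CPM in Sham replicates 1 to 5. Apart from HLI replicate 4, the HLI libraries lay in the upper part of the Sham range or just above it. The log2 fold change was 0.21 (SE 0.28, edgeR adjusted p = 0.66). Leaving out HLI replicate 4 gave 0.40 (edgeR adjusted p = 0.16), whereas leaving out HLI replicate 3 gave 0.11 and Sham replicate 4 gave 0.10. The 8 tendon markers summed to 245 CPM in HLI replicate 4, where Thbs4 was lowest, but also to only 464 CPM in HLI replicate 3, where Thbs4 was highest. Elsewhere that sum was 1039 to 1182 CPM in HLI and 942 to 1540 CPM in Sham.

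Within-library ratios between the thrombospondins overlapped between the groups. The mean log2 ratio of Thbs2 to Thbs1 differed by 0.33 (SE 0.50) between HLI and Sham, with an exact permutation p of 0.54, and by 0.04 when HLI replicate 3 was left out and 0.00 when Sham replicate 3 was. The difference was 0.17 (SE 0.42, exact permutation p = 0.68) for Thbs4 to Thbs1, and -0.16 (SE 0.25, exact permutation p = 0.54) for Thbs4 to Thbs2. On the TPM scale Thbs2 to Thbs1 ran from 0.455 in HLI replicate 1 to 1.8 in HLI replicate 3, and from 0.254 in Sham replicate 3 to 0.986 in Sham replicate 1. Adjusted over the 4 ratios, all 3 exact permutation p-values were 0.68.

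Sparc (ENSMUSG00000018593) encodes osteonectin, a collagen-binding protein that loosens cell adhesion and that fibroblasts, endothelial cells and muscle stem cells make. It was the steadiest of the 10 genes in HLI, with 2494, 2452, 2606, 1287 and 2362 CPM in replicates 1 to 5, against 2235, 2210, 1667, 2325 and 2499 CPM in Sham replicates 1 to 5. Except for HLI replicate 4 and Sham replicate 3, which were low, all libraries lay between 2210 and 2606 CPM. Means were 2240 ± 540 CPM in HLI and 2187 ± 312 CPM in Sham (SD, n = 5 each), and the log2 fold change was 0.03 (SE 0.20, edgeR adjusted p = 0.93). Its sign changed when HLI replicate 1, 2 or 3 or Sham replicate 3 was left out, with values between -0.06 and 0.17 over the libraries left out.

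Fn1 (ENSMUSG00000026193) encodes fibronectin, the adhesive glycoprotein of the early wound matrix that integrin alpha5 beta1 assembles into fibrils. It had 2112, 1543, 2425, 571 and 1500 CPM in HLI replicates 1 to 5, and 1585, 953, 1114, 981 and 881 CPM in Sham replicates 1 to 5. In HLI 4 of 5 libraries lay above the Sham median of 981 CPM, and HLI replicate 4 lay below every Sham library. For Fn1 HLI over Sham was 0.56 on the log2 scale (SE 0.32; edgeR adjusted p = 0.34, exact permutation p = 0.31). The value was 0.77 without HLI replicate 4 (edgeR adjusted p = 0.081) and 0.38 without HLI replicate 3.

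Fbn1 (ENSMUSG00000027204) encodes fibrillin-1, the backbone of microfibrils that bind latent TGF-beta complexes. It had 1127, 740, 673, 353 and 761 CPM in HLI replicates 1 to 5, and 866, 513, 419, 459 and 393 CPM in Sham replicates 1 to 5. The HLI libraries other than replicate 4 lay above Sham replicates 2 to 5, and Sham replicate 1 lay above all HLI libraries except replicate 1. For Fbn1 the log2 fold change was 0.46 (SE 0.29, edgeR adjusted p = 0.38, exact permutation p = 0.21), 0.71 without Sham replicate 1 and 0.25 without HLI replicate 1.

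Lox (ENSMUSG00000024529) encodes lysyl oxidase, the copper enzyme that starts the crosslinking of collagen and elastin. Levels were 348, 81.2, 260, 46.8 and 109 CPM in HLI replicates 1 to 5, and 118, 86.5, 195, 80.0 and 63.0 CPM in Sham replicates 1 to 5. HLI replicates 1 and 3 were the highest libraries, as for Tnc, and Sham replicate 3 came next, the highest Sham library also for Tgfbi and Thbs1. HLI over Sham was 0.64 on the log2 scale (SE 0.50; edgeR adjusted p = 0.46; exact permutation p = 0.57), a value that was 0.19 without HLI replicate 1 and 0.96 without Sham replicate 3.

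**Figure D3:**
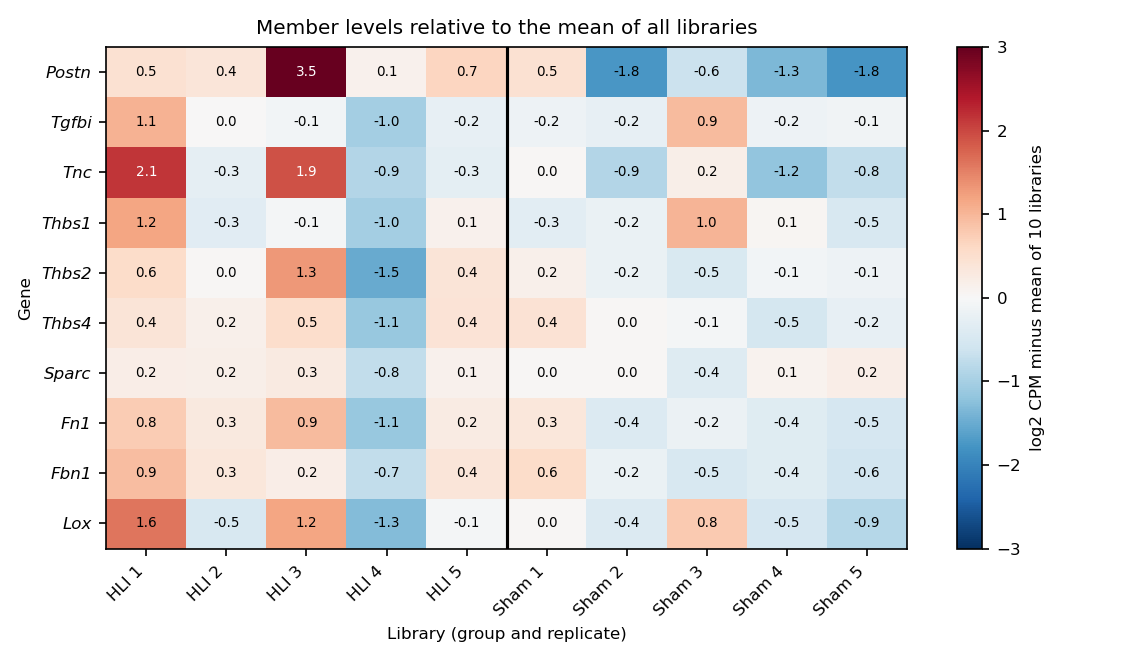
Log2 CPM of each gene minus its mean over the 10 libraries, with HLI columns left of Sham columns and the values printed in the cells (red above, blue below the mean). HLI replicates 1 and 3 are mostly above and HLI replicate 4 mostly below the mean, and Postn is the only gene above its mean in HLI replicate 4.

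Read by library, most of the high and low values fell in the same few libraries. HLI replicates 1 and 3 were each the highest of all libraries for 5 of the 10 genes, against 15.9% and 22.4% of all genes tested. HLI replicate 1 led for Tgfbi, Tnc, Thbs1, Fbn1 and Lox, and HLI replicate 3 for Postn, Thbs2, Thbs4, Sparc and Fn1. HLI replicate 4 was the lowest HLI library for all 10 genes, a count whose share over all genes was not computed. It was the lowest of all 10 libraries for 8 of them, against 12.9% of all genes tested. Postn was the exception there, since its 452 CPM in HLI replicate 4 was 2.78 times the Sham median, whereas the other 9 genes stood at 0.389 (Thbs2) to 0.916 (Tnc) times theirs. HLI replicate 4 also had the lowest fibro-adipogenic progenitor and fibroblast marker sum, 3182 CPM, with all 10 of those markers detected. The sum was 4008 to 6136 CPM in the other HLI libraries and 4719 to 6038 CPM in Sham. The 4008 CPM was that of HLI replicate 3, the highest library for Postn and Fn1. Not every marker followed, and Gsn stood at 819 CPM in HLI replicate 3 against 1152 CPM in HLI replicate 4. In HLI replicate 3 Gsn, Dcn (1237 CPM) and Ly6a (99.1 CPM) lay below every Sham library. Pdgfra (193 CPM), Lum (409 CPM) and Dpt (265 CPM) lay above every Sham library there. The muscle fibre sum of HLI replicate 4, 141459 CPM, was the highest in HLI and within the Sham range. The part of these cells in the low values was not tested. Without HLI replicate 4, Postn, Tnc, Thbs2 and Fn1 had edgeR adjusted p-values of 0.081 to 0.083, still above the threshold of 0.05. Since that library was the lowest in HLI for all 10 genes, leaving it out raises their HLI means by construction. In that fit 0 genes of the whole table passed, and the share of all genes with such adjusted p-values was not computed. Without both HLI replicate 1 and Sham replicate 1 the log2 fold changes were 3.20 for Postn, 1.14 for Tnc, 0.62 for Fn1, 0.58 for Thbs2, 0.50 for Fbn1, 0.31 for Thbs4, 0.23 for Lox, and -0.48 for Tgfbi and Thbs1.

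Among the Sham libraries, replicate 1 was the highest for 5 genes and replicate 3 for 4, against 24.4% and 25% of all genes tested. Sham replicate 1, which also had new fibre markers, led for Postn, Thbs2, Thbs4, Fn1 and Fbn1. In it Postn was 3.97 times and Fbn1 1.97 times the median of the other Sham libraries. Sham replicate 3, with the highest neutrophil sum, led for Tgfbi, Tnc, Thbs1 and Lox. In it Sparc stood at 0.731 and Thbs2 at 0.795 times that median, while Tgfbi, Tnc, Thbs1 and Lox stood at 2.16, 1.97, 2.44 and 2.35 times. These 4 genes were also highest in HLI replicate 1 among all libraries.

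**Figure D4:**
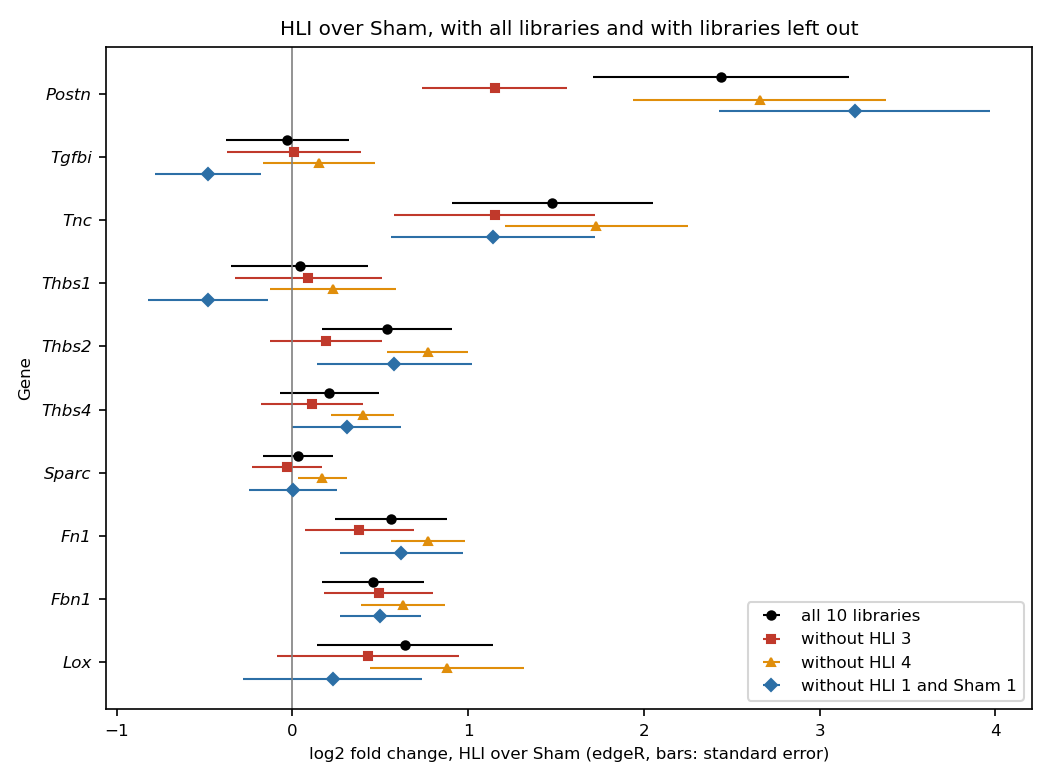
Log2 fold change of HLI over Sham from edgeR for each gene, with bars for the standard error, from all 10 libraries and with HLI replicate 3, HLI replicate 4, or the pair HLI replicate 1 and Sham replicate 1 left out. Postn is at 2.44 with all libraries and at 1.15 without HLI replicate 3, and Thbs1 and Tgfbi are at -0.48 without HLI replicate 1 and Sham replicate 1.

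Levels can be compared between genes on the TPM scale, which accounts for gene length. Sparc was the most abundant in both groups, at 1998 ± 647 TPM in HLI and 1649 ± 201 TPM in Sham (SD, n = 5 each). In Sham the order went on with Thbs4 (376 ± 119 TPM), Fn1 (244 ± 77.9), Postn (145 ± 120), Fbn1 (92.3 ± 39.7), Tgfbi (87.5 ± 41), Thbs1 (43.6 ± 23.4), Lox (40.8 ± 22.1), Thbs2 (25.5 ± 4.80) and Tnc (17.7 ± 8.38). Only the step from Sparc to Thbs4 separated neighbours whose ranges did not overlap. In HLI the mean of Postn, 969 ± 1407 TPM, ranked next after Sparc because of HLI replicate 3, at 3484 TPM. In the other 4 HLI libraries it reached at most 416 TPM, and it exceeded Thbs4 in 2 of the 5. The rest of the HLI order was Thbs4 (510 ± 218 TPM), Fn1 (428 ± 220), Fbn1 (147 ± 59.7), Tgfbi (99.4 ± 57.1), Lox (75.3 ± 60.9), Tnc (59.4 ± 56.2), Thbs1 (52.2 ± 32.8) and Thbs2 (45.1 ± 31.5), and no neighbours in HLI were free of overlap. Thbs4 lay above Fn1 in every library of both groups. Postn made up 41.7% of the summed TPM of the 10 genes in HLI replicate 3, 8.24% to 15.1% in the other HLI libraries, 9.94% in Sham replicate 1 and 2.50% to 6.20% in the other Sham libraries.

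**Figure D5:**
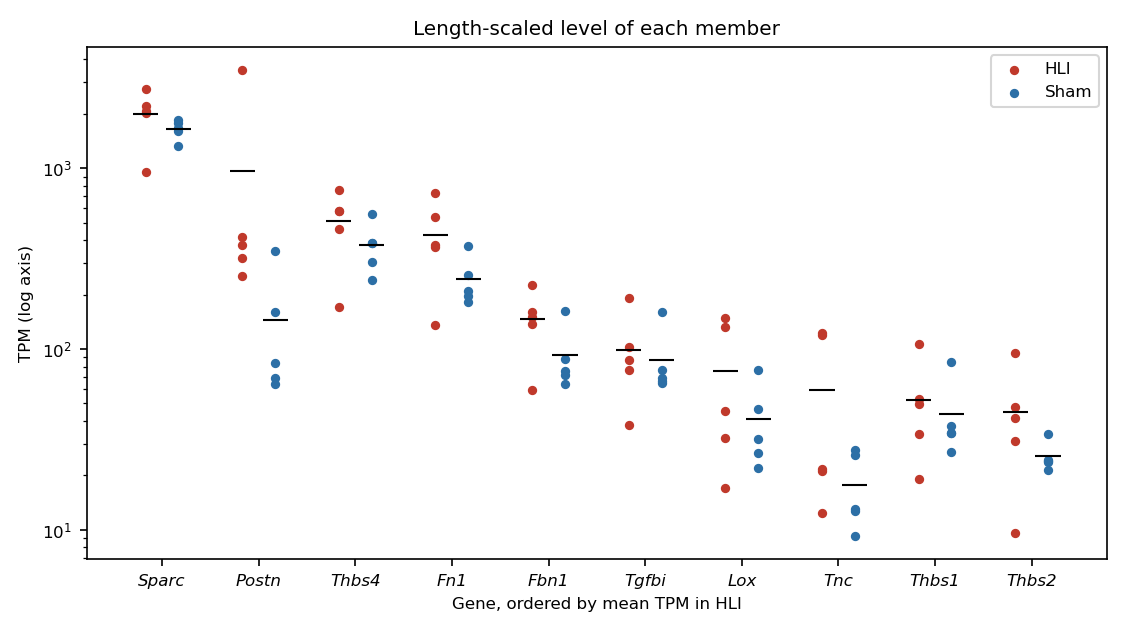
TPM (log axis) of the 10 genes in the order of their mean in HLI, with HLI points left of Sham points for each gene and black lines for group means. Sparc is highest in both groups, at means of 1998 TPM in HLI and 1649 TPM in Sham, and HLI replicate 3 lifts the HLI mean of Postn to 969 TPM.

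Other matricellular genes were examined as a list of relatives. Of 22 listed relatives 20 were tested, 0 passed in either direction, and 16 lay above 0, against 53.8% of all genes. Their median log2 fold change was 0.20, against 0.03 for all genes. The most abundant by mean TPM were Lgals1, which encodes galectin-1, with 352 ± 111 CPM in HLI and 269 ± 18.4 CPM in Sham, and Sparcl1, the SPARC relative hevin, with 645 ± 189 CPM in HLI and 517 ± 136 CPM in Sham. Next by mean TPM came Smoc2, which encodes a SPARC-related protein, with 275 ± 37.2 CPM in HLI and 332 ± 47.7 CPM in Sham (SD, n = 5 each). Their edgeR adjusted p-values were 0.31, 0.44 and 0.32. Tnn, which encodes tenascin-W, was named after its values were seen and did not pass the filter on low counts. It was at 12.2 CPM in HLI replicate 3, the library with the most Postn, and at 1.27 CPM or less in the others.

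Elastic fibre and crosslinking genes were the matrix partners with the highest median. All 20 were tested, 0 passed, and 17 lay above 0, against 53.8% of all genes. Their median log2 fold change was 0.42, against 0.03 for all genes. At an unadjusted p under 0.05, 8 were higher, against 10.7% of all genes. The median was 0.31 without HLI replicate 3 and 0.49 without both HLI replicate 1 and Sham replicate 1. Mfap5, which encodes a microfibril-associated glycoprotein, had 115 ± 21.6 CPM in HLI and 80.3 ± 30.1 CPM in Sham (SD, n = 5 each; log2 fold change 0.52, SE 0.22, edgeR adjusted p = 0.29). Mfap4, a microfibril-associated protein gene, had 89.1 ± 35.0 CPM in HLI and 69.7 ± 23.3 CPM in Sham, and Ltbp4, which encodes a latent TGF-beta binding protein, had 322 ± 79.8 CPM in HLI and 368 ± 59.0 CPM in Sham. Loxl1, a relative of Lox and named after its values were seen, had 119, 86.5, 145, 55.6 and 92.0 CPM in HLI replicates 1 to 5, and 97.0, 60.5, 61.1, 44.9 and 48.1 CPM in Sham replicates 1 to 5, without the high Sham replicate 3 that Lox showed.

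Receptors for these proteins gave 0 called genes of 16 tested, with 12 above 0 and a median log2 fold change of 0.23. Over all genes 53.8% lay above 0, with a median of 0.03. Itgb1, the integrin beta1 subunit shared by fibronectin and tenascin receptors, had 532 ± 75.4 CPM in HLI and 437 ± 64.2 CPM in Sham (log2 fold change 0.28, SE 0.14, edgeR adjusted p = 0.31). Lrp1, an endocytic receptor that clears thrombospondins, had 537 ± 226 CPM in HLI and 452 ± 67.0 CPM in Sham, and Cd36, the thrombospondin receptor that also takes up fatty acids, had 494 ± 96.3 CPM in HLI and 514 ± 68.5 CPM in Sham. Of 13 TGF-beta signalling genes 0 passed, 10 lay above 0, against 53.8% of all genes, and the median was 0.08, against 0.03. Tgfbr2, a TGF-beta receptor gene, had 225 ± 53.3 CPM in HLI and 176 ± 41 CPM in Sham. Smad3, the TGF-beta signal transducer, had 92.0 ± 21.3 CPM in HLI and 132 ± 24.9 CPM in Sham (log2 fold change -0.52, SE 0.18, edgeR adjusted p = 0.29), and Ski, a repressor of SMAD signalling, had 109 ± 10.1 CPM in HLI and 108 ± 7.54 CPM in Sham.

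Marker lists of the cell types around the matrix were read in the same way, and 0 genes of any list passed with all libraries. Without both HLI replicate 1 and Sham replicate 1, edgeR called 2 stem cell and new fibre markers and 1 endothelial marker, against 0.401% of all genes. These libraries had been singled out by Myh3, which is itself on the stem cell and new fibre list. The calls in that list are therefore no independent support. Macrophage markers lay above 0 in 10 of 10 cases, against 53.8% of all genes, with a median log2 fold change of 0.98, against 0.03. At an unadjusted p under 0.05, 7 were higher, against 10.7% of all genes. Lyz2, the lysozyme gene of myeloid cells, had 954 ± 488 CPM in HLI and 474 ± 194 CPM in Sham (SD, n = 5 each). Stem cell and new fibre markers had a median of 1.60 over 7 tested, and Myh8, the perinatal myosin gene, had 1.65, 62.5, 695, 83.4 and 124 CPM in HLI replicates 1 to 5, against 78.2 CPM in Sham replicate 1 and 1.43 to 3.11 CPM in the other Sham libraries. Muscle fibre markers lay below 0 in 9 of 10 cases, against 6194 of the 13404 genes tested, with a median of -0.50. Medians were 0.22 for fibro-adipogenic progenitor and fibroblast, -0.47 for tendon, -0.40 for adipocyte, 0.13 for endothelial, -0.06 for pericyte and smooth muscle, -0.21 for Schwann cell, 0.10 for platelet and 0.11 for neutrophil markers. The neutrophil median was -0.95 without HLI replicate 1 and 1.23 without Sham replicate 3, and the platelet median was -0.15 without HLI replicate 1 and 0.28 without Sham replicate 3. Without HLI replicate 3 the stem cell and new fibre median was 0.92.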

How the data were processed

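Poly(A) RNA libraries of gastrocnemius muscle, 5 HLI and 5 Sham, were sequenced as paired ends, per the labels' protocols. Groups and replicate numbers come from the sample titles. The series text speaks of cells, and the extraction protocol mentions adipose material, so the handling is uncertain. HISAT2 2.0, Bowtie 0.12.2 and the build mm8 are named in the submitters' processing notes without a role. Which program counted reads, with which annotation and whether by strand, was not found in these sources.

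The authors deposited estimated counts per gene, not normalized, of which 93.4% are whole numbers, and TPM values, per the file headers. Rounded counts entered edgeR 4.0.16 (R 4.3.3), whose quasi-likelihood test was the main one (TMM, filterByExpr with a count minimum of 10 and total minimum of 15, no covariate, Benjamini-Hochberg threshold 0.05 over 13404 genes). Standard errors come from that fit, except those of the ratios, which come from the spread of the library values. Permutation tests (scipy 1.17.1) used all 252 assignments. They took log2 CPM with a prior count of 2 for single genes, and log2 ratios of CPM without a prior count. On simulated counts of 13321 genes, 74% of genes changed 2-fold and 96% of those changed 4-fold were recovered, with 3.95% of calls false. The simulated spread between libraries followed the trend over all genes, and no library was made deviant. These shares need not hold for genes with uneven libraries, such as Postn.

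The members and lists were chosen with earlier results of these data known. The named genes are the 10 members and the 3 genes of highest mean TPM in each list; others are said to be chosen later. Cell type lists were used as summed CPM, and which list is set beside which gene was not planned ahead. Alternatives were DESeq2 1.42.0, its size factors, upper quartile scaling, no filter, a robust prior, the replicate block, limma 3.58.1 on log2(TPM + 1), on log2(TPM + 0.1) and on scaled TPM, and leaving out libraries.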

Additional observations from a re-analysis of the deposited data

Results flagged for a closer look

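A gap test compared the highest and the lowest library of each gene with the rest of its group of 5, and asked whether the gap to the nearest library exceeded 0.71 of the whole range. It marked 5 values, from 4 libraries, in 20 groups of values, where chance marks about 1 group in 20 if values are normally distributed. The gaps are of CPM, and on the log2 scale the gap was 0.651 of the range for Thbs1 in Sham replicate 3 and 0.663 for Fbn1 in Sham replicate 1, both under 0.71, and 0.775 for Thbs4 in HLI replicate 4, which the CPM gap of 0.666 did not mark. Postn in HLI replicate 3 stood at 4520 CPM, with the next HLI library at 644 CPM. Tgfbi in Sham replicate 3 stood at 244 CPM, with the next Sham library at 118 CPM, and Thbs1 in the same library stood at 278 CPM, with the next at 141 CPM. Sparc in HLI replicate 4 stood at 1287 CPM, below the next HLI library at 2362 CPM. Fbn1 in Sham replicate 1 stood at 866 CPM, with the next Sham library at 513 CPM.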

How the results depend on the processing

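No matricellular gene passed in any of the 20 alternatives run, but DESeq2 gave Postn no p-value and so did not test it. The number with a log2 fold change above 0 ran from 7 to 10 over the 20 alternatives. The count over all genes was 0 in edgeR and 45 in DESeq2 and 54 without HLI replicate 1 and Sham replicate 1, and 0 in the other alternatives. Postn, Tnc, Thbs2, Thbs4, Fn1, Fbn1 and Lox kept a value above 0 throughout. Tgfbi turned above 0 on log2(TPM + 1) and log2(TPM + 0.1) without further scaling (0.09 on each), where the median of all genes is 0.19, and lay between -0.42 and 0.26 when single libraries were left out. Thbs1 turned below 0 on scaled TPM (-0.04), with the replicate block (-0.05) and without HLI replicate 1 and Sham replicate 1 (-0.48), and lay between -0.39 and 0.39 when single libraries were left out. Sparc turned below 0 on scaled TPM (-0.01) and lay between -0.06 and 0.17 when single libraries were left out. The ratio of Thbs2 to Thbs1 differed by between 0.00 and 0.53, that of Thbs4 to Thbs1 by between -0.08 and 0.40, and that of Thbs4 to Thbs2 by between -0.29 and 0.01, when single libraries were left out. The cause of these changes was not tested. With the replicate number as a block the log2 fold change of Postn was 2.02 (edgeR adjusted p = 0.13) and that of Tnc 1.05 (adjusted p = 0.14), and no call changed. The numbers are not known to pair samples, since the correlation over genes of same-numbered deviations ran from -0.00898 to 0.275. With 5 samples a group, 74% of simulated 2-fold changes were recovered. The simulation held no deviant libraries, so it does not give the power for genes such as Postn.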
